A study of Mus musculus with 4 samples.

Results

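The histone H3K4 methyltransferases of the KMT2 and SETD1 families, and SETD7, were followed at the RNA level through the deletion of *Mll4* and through adipogenesis. The genes were chosen by name, 8 in all, and a gene counted as found when the RefSeq accession of a row mapped to its symbol or a synonym. Among the 22463 gene symbols with a row were 6 of the 8, *Kmt2b*, *Kmt2c* (*Mll3*), *Kmt2d* (*Mll4*), *Kmt2e*, *Setd1a* and *Setd7*, each with a single row. *Kmt2a* and *Setd1b* were not matched by accession and are not analysed here.

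Methylation of lysine 4 of histone H3 marks active and poised regulatory DNA, with mono- and dimethylation typical of enhancers and trimethylation typical of promoters. The KMT2 and SETD1 enzymes work in large complexes built around a shared core of WDR5, RBBP5, ASH2L and DPY30. MLL3 and MLL4 act mainly at enhancers, MLL1 and its relative encoded by *Kmt2b* at selected genes such as developmental regulators, and SETD1A and SETD1B account for much of the trimethylation at promoters. KMT2E carries a SET domain but is regarded mainly as a chromatin reader, and SETD7 is a smaller enzyme that works outside these complexes and also methylates many non-histone proteins.

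RNA-Seq was performed on brown preadipocytes, precursors of brown fat cells, which came from *Mll3*-/-*Mll4* f/f E18.5 embryos of C57BL/6J background and were immortalized with SV40T. Infection with an adenovirus carrying GFP (Ad-GFP) left cells without MLL3 alone, and infection with an adenovirus carrying the Cre recombinase (Ad-Cre) gave cells lacking both MLL3 and MLL4. Both were sampled after confluence (day 0) and on day 2 of treatment with insulin, T3, indomethacin, dexamethasone and IBMX. There was 1 library for each of the 4 conditions, so no p-value is given, every interval covers the counting error of reads only, and the comparisons are between libraries of an immortalized line. All cells, the Ad-GFP cells labelled WT included, carry the *Mll3* gene trap, so a response of the family to the loss of MLL3 cannot be read from these data.

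The deposited counts summed to between 15831915 and 22099995 reads per library. Levels are given in RPKM, reads scaled to exon length in kilobases and to the mapped reads of the library, which allows genes of different length to be compared. A transcript was taken as expressed when its level with Ad-GFP exceeded 1 RPKM on day 0 or on day 2, which held for 15908. The Ad-Cre day 2 library stood apart. Its counts made up 87.8% of its mapped reads, against 96.1% to 99.4% in the other 3 libraries, and since RPKM is scaled to mapped reads this lowers its levels relative to a scaling by counts. Its ratio to the Ad-GFP day 2 library was related to transcript length, with a median log2 ratio of 0.46 in the shortest and −0.73 in the longest of 10 equal groups of expressed transcripts. At day 0 these medians were −0.18 and −0.013. Every methyltransferase gene found is long, from 5931 bases for *Setd1a* to 19827 bases for *Kmt2d*, and each is longer than 89.6% or more of expressed transcripts. Below, the deletion ratio is the log2 ratio of the RPKM of Ad-Cre to that of Ad-GFP cells on the same day, and the differentiation ratio that of day 2 to day 0 within 1 kind of cell, so that any 2 of these ratios that use the same library are not independent. Values are also set beside those of the 1650 expressed transcripts of at least 5931 bases. Summed levels of fat cell markers on day 0 were 30.4 RPKM (Ad-GFP) and 15.7 RPKM (Ad-Cre), and on day 2 they were 1999 and 490.4 RPKM. Preadipocyte markers summed to 325.5, 143.7, 105.3 and 69.9 RPKM in the same order, but not every marker followed the sum. *Dlk1* (141.04 and 10.1 RPKM) and *Pdgfra* (73.6 and 9.72 RPKM) carried the lower day 0 sum with Ad-Cre, whereas *Pdgfrb* stood at 89.9 RPKM with Ad-GFP and 123.2 RPKM with Ad-Cre on day 0, and *Cd34* at 1.46 and 2.98 RPKM on day 2. Among the fat cell markers on day 0, *Cebpa* was at 18.0 RPKM with Ad-GFP and 7.40 RPKM with Ad-Cre. *Pparg*, *Lpl* and *Plin1* were also lower with Ad-Cre that day, whereas *Fabp4* (4.17 and 4.24 RPKM) and *Adipoq* (3 and 7 reads) were not. Of the 5 brown fat markers, *Ebf2*, *Zic1* and *Prdm16* passed 1 RPKM in a library, *Ucp1* had at most 1 read and *Cidea* had 0 reads. Markers of skeletal muscle, leukocytes and endothelium stayed at or below 0.240 RPKM when summed, and the muscle regulator *Myog* and the leukocyte markers *Ptprc* and *Adgre1* had 0 reads in every library. The part of cell state, cell mixture and the length relation in the results below was not tested, and in bulk RNA fewer cells of a kind and less RNA per cell cannot be told apart.

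The deletion itself lies in a small stretch of *Kmt2d*, and its sequence shows what a count over the whole gene can and cannot report. The annotation of NCBI37/mm9 gives *Kmt2d* the span chr15:98662100-98701614 on the minus strand. Cre removes exons 16 to 19, which in the longest annotated transcript are coding exons of 505 bases in all and 2.55% of its 19805 bases. They are shown because their loss is the perturbation of the study, each 5′ to 3′ on the strand of the gene.
*Kmt2d* exon 16, chr15:98688473-98688654: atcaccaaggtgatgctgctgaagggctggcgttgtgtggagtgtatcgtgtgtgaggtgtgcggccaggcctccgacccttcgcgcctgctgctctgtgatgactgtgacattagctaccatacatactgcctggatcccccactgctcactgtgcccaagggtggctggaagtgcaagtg
*Kmt2d* exon 17, chr15:98688153-98688317: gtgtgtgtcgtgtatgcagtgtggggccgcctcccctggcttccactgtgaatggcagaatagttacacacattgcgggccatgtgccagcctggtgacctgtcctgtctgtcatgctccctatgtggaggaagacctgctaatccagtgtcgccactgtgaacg
*Kmt2d* exon 18, chr15:98687956-98688065: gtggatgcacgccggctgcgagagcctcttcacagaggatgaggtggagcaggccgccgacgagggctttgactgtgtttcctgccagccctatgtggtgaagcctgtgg
*Kmt2d* exon 19, chr15:98687819-98687866: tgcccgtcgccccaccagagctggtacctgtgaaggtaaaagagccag

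The length of these exons leaves a remainder of 1 when divided by 3, so joining exon 15 to exon 20 shifts the reading frame. The joined sequence, the last 30 bases of exon 15 followed by the first 36 of exon 20, reaches a stop codon, in capitals, that starts at base 34 of exon 20.
*Kmt2d* exons 15 and 20 joined: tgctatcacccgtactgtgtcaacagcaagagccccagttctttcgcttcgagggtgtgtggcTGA

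The open reading frame then holds 1379 codons in place of 5588, or 24.7%, and ends before the catalytic SET domain, which lies at the C terminus of MLL4. Loss of the 4 exons without any change in RNA amount would lower a whole-transcript log2 ratio by only 0.037. The junction was read from the annotation and not from reads, since the files hold 1 count per transcript.

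*Kmt2d* (NM_001033276) RNA was present in all 4 libraries at levels that spanned a log2 range smaller than that of any other gene found. On day 0 its level was 18.49 RPKM (6304 reads) with Ad-GFP and 16.3 RPKM (6316 reads) with Ad-Cre, and on day 2 these were 18.7 RPKM (8530 reads) and 15.6 RPKM (5595 reads). Both Ad-Cre libraries lay below both Ad-GFP libraries, by 1.13-fold at day 0 and 1.20-fold at day 2. The deletion ratio was −0.18 on day 0, where 33.7% of all and 28.1% of the long expressed transcripts had a lower one. On day 2 it was −0.26, where 47.4% and 70.8% had a lower one. The differentiation ratio was 0.018 with Ad-GFP (95% confidence interval −0.029 to 0.065) and −0.061 with Ad-Cre (−0.11 to −0.0090). The lower level in Ad-Cre cells kept its direction at day 0 in all 10 settings of scaling, transcript choice and trend removal (those on transcript choice leave genes with a single row as they are). At day 2 it did so in 9 of 10, the exception being 0.47 when the length trend was removed. The day 2 value was −0.074 with TMM factors, −0.052 with DESeq2 size factors and −0.81 with the GC trend removed. Among windows of 50 bases of the *Kmt2d* transcript, 2.43% also matched elsewhere in the genome with at most 2 mismatches, against 1.54% or less for the other genes found.

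*Kmt2c* (NM_001081383, chr5:24777612-25004601, minus strand), which encodes MLL3, is trapped between exons 9 and 10 in every cell. By the exon numbers of its longest annotated transcript, 1529 of 16901 bases (9.05%) lie before the trap. These numbers were not checked against the study's numbering. *Kmt2c* had the lowest level of the 6 genes in each library. On day 0 it stood at 1.80 RPKM (522 reads) with Ad-GFP and 1.41 RPKM (463 reads) with Ad-Cre. On day 2 these were 3.17 RPKM (1224 reads) and 1.49 RPKM (451 reads). The Ad-GFP day 2 library stood above the other 3. The differentiation ratio was 0.81 with Ad-GFP (95% confidence interval 0.66 to 0.96) and 0.076 with Ad-Cre (−0.11 to 0.27). This contrast kept its direction with the GC trend removed, at 0.56 (Ad-GFP) and 0.33 (Ad-Cre). It was not kept with the length trend removed, alone or with the GC trend. With the length trend removed the values were 0.68 and 0.74, and with the length and GC trends removed 0.63 and 0.77. The deletion ratio was −0.36 on day 0 and −1.09 on day 2, the latter a 2.13-fold lower level. Among expressed transcripts at least as long as *Setd1a*, 30.4% had a lower ratio at day 2. With the length trend removed the day 2 value was −0.36, and with the length and GC trends removed −0.22. Where along the trapped gene the reads lie is not given by the counts.

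**Figure D1:**
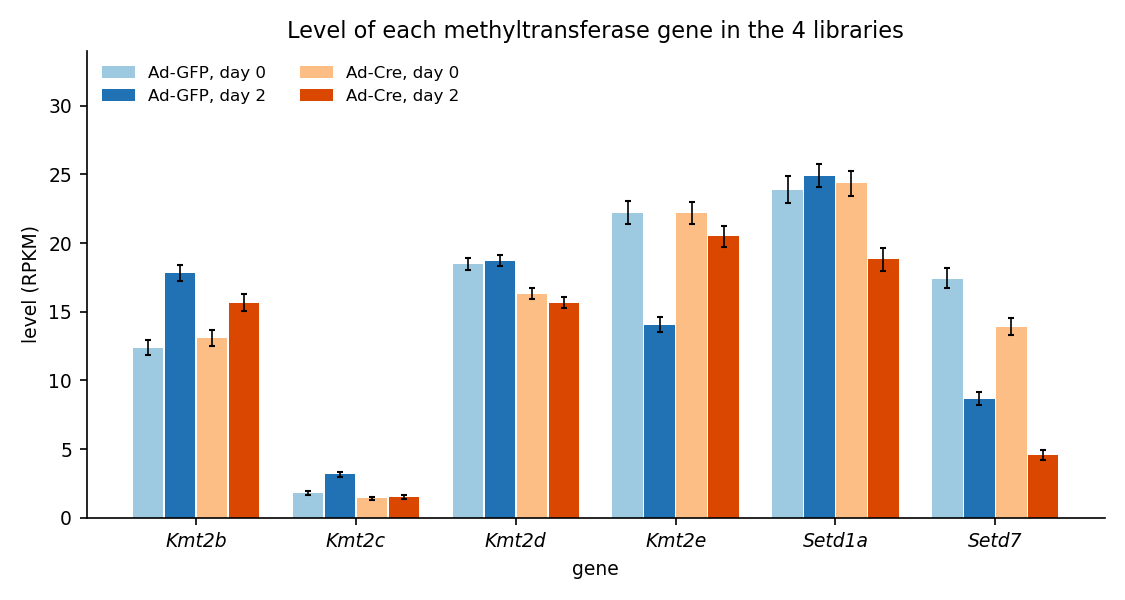
Level of each methyltransferase gene in RPKM (vertical axis) in the 4 libraries (bars, 1 library each), with exact Poisson 95% intervals of the read counts as error bars. *Kmt2c* is the lowest gene in every library, from 1.41 to 3.17 RPKM, and *Setd7* spans the widest range, from 4.55 to 17.4 RPKM.

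*Kmt2b* (NM_029274, chr7:31353877-31373745, minus strand), the relative of MLL1, was higher on day 2 than on day 0 in both kinds of cells. With Ad-GFP its level was 12.4 RPKM (1802 reads) on day 0 and 17.8 RPKM (3465 reads) on day 2, and with Ad-Cre 13.1 RPKM (2160 reads) and 15.7 RPKM (2390 reads). The differentiation ratio was 0.52 with Ad-GFP, positive in all 10 settings. With Ad-Cre it was 0.26, positive in 9 of 10 settings and −0.10 with the GC trend removed. The deletion ratio on day 0 was 0.079, with a 95% confidence interval (−0.011 to 0.17) that holds 0. On day 2 it was −0.19 (−0.26 to −0.11), and it was positive with DESeq2 size factors and with the length trend removed.

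*Setd1a* (NM_178029, chr7:134920184-134943636, plus strand), the promoter trimethylase, had the highest level of the 6 genes in 3 of the 4 libraries. It stood at 23.9 RPKM (2437 reads) with Ad-GFP and 24.4 RPKM (2818 reads) with Ad-Cre on day 0, then at 24.9 RPKM (3392 reads) and 18.8 RPKM (2012 reads) on day 2. The 3 libraries other than Ad-Cre day 2 lay within 1 RPKM of each other. The deletion ratio was 0.028 on day 0 (95% confidence interval −0.051 to 0.11) and −0.40 on day 2 (−0.48 to −0.32). At day 2, 65.5% of the long expressed transcripts had a lower ratio than *Setd1a*. The day 2 value was negative in 9 of 10 settings, at −0.74 with the GC trend removed and −0.36 with both trends removed. The exception was 0.21 with the length trend removed.

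*Kmt2e* (NM_026984, chr5:22940259-23010053, plus strand), the chromatin reader, was the only one of the 6 genes with a positive deletion ratio on day 2 in the values as reported. Its level was 22.2 RPKM in both cells on day 0, from 2771 (Ad-GFP) and 3142 (Ad-Cre) reads, and on day 2 it was 14.1 RPKM (2345 reads) against 20.5 RPKM (2681 reads). The Ad-GFP day 2 library was thus the one that stood apart, below the other 3. The differentiation ratio was −0.66 with Ad-GFP (95% confidence interval −0.74 to −0.58) and −0.12 with Ad-Cre (−0.19 to −0.040). The latter changed sign in 4 of 10 settings. The deletion ratio on day 2 was 0.54 (0.46 to 0.62), a 1.46-fold higher level, and positive in all 10 settings, from 0.51 to 1.42. It exceeded the ratio of 89.0% of the long and 77.1% of all expressed transcripts.

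*Setd7* (NM_080793, chr3:51319241-51364800, minus strand), the enzyme outside the complexes, had the widest range over the libraries. With Ad-GFP its level was 17.4 RPKM (2204 reads) on day 0 and 8.68 RPKM (1468 reads) on day 2, and with Ad-Cre 13.9 RPKM (1998 reads) and 4.55 RPKM (603 reads). Both day 2 libraries lay below both day 0 libraries, and on each day the Ad-Cre library lay below the Ad-GFP library. The day 2 level was 2.01-fold lower than that of day 0 with Ad-GFP and 3.06-fold lower with Ad-Cre, a direction kept in all 10 settings. The deletion ratio was −0.32 on day 0 (95% confidence interval −0.41 to −0.24) and −0.93 on day 2 (−1.07 to −0.80). It stayed negative in all 10 settings, but at day 2 it was −0.22 with the length trend removed and −0.069 with the length and GC trends removed.

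Whether other enzymes of the family were raised where MLL4 was deleted was read from the 4 genes that are neither trapped nor floxed, *Kmt2b*, *Kmt2e*, *Setd1a* and *Setd7*. None of the 4 was over 2.5-fold higher with Ad-Cre on either day, where 1.23% of all expressed transcripts were on day 0 and 7.92% on day 2. Transcripts counted as expressed had to pass the threshold with Ad-GFP, and among transcripts with at least 1 read in every library these shares were 2.96% and 10.96%. As reported none was over 1.5-fold higher either, where 6.83% and 21.8% of expressed transcripts were. This held on day 0 in all 10 settings, but on day 2 *Kmt2e* was over 1.5-fold higher in 6 of 10 settings, with values of 0.67 with the sum of counts, 0.73 with TMM factors, 0.75 with DESeq2 size factors, 1.08 with the GC trend removed and 1.26 with the length trend removed. With both trends removed it stood at 1.42, over 2.5-fold higher. The shares of all expressed transcripts given here are for the values as reported, and those under the other scalings or trend removals are not given. On day 0 the interval of 0 of the 4 lay above 0 and that of 1, *Setd7*, below it, where the intervals of 26.7% of all expressed transcripts lay above and of 29.3% below 0, and of 32.1% and 34.2% of the long ones. On day 2 the interval of 1, *Kmt2e*, lay above 0 and those of the other 3 below it, where 32.8% and 48.3% of all expressed transcripts lay above and below, and 18.6% and 73.2% of the long ones. The 3 genes below 0 thus had the direction of most long transcripts. The levels of the 4 genes summed to 75.9 RPKM (Ad-GFP) and 73.5 RPKM (Ad-Cre) on day 0, and to 65.4 and 59.5 RPKM on day 2. The deletion ratio of these sums was −0.045 on day 0 and −0.14 on day 2, and the latter became 0.047 with TMM factors and 0.069 with DESeq2 size factors, whose use moved the median of all expressed transcripts by 0.18 and 0.21. An RNA level does not report the amount or activity of the enzymes.

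**Figure D2:**
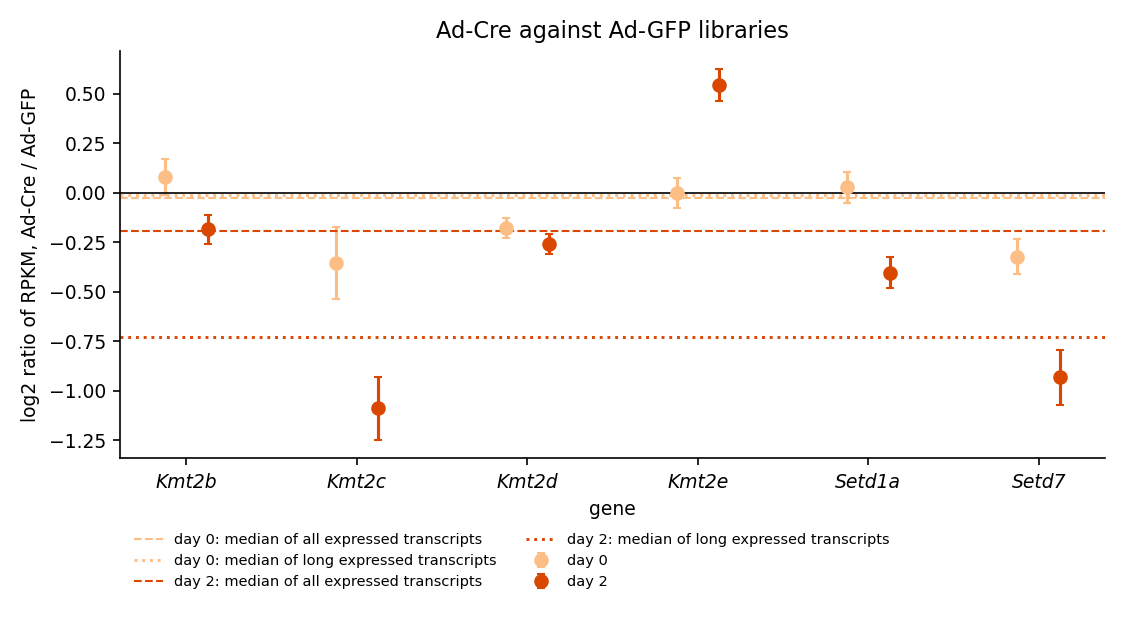
Deletion ratio (log2 RPKM ratio, vertical axis) of each gene at day 0 (light) and day 2 (dark), with exact binomial 95% intervals. Dashed lines are medians of all expressed and dotted lines of the long expressed transcripts. As reported, 5 of the 6 genes lie below 0 at day 2 and *Kmt2e* above it, while with the length trend removed *Kmt2b*, *Kmt2d* and *Setd1a* also lie above 0, and *Kmt2b* with DESeq2 size factors.

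Over the 6 genes, the median deletion ratio was −0.090 on day 0, beside −0.024 for all expressed and −0.011 for the long expressed transcripts. At day 2 it was −0.33, beside −0.19 and −0.73. None of the 6 genes was over 2.5-fold lower with Ad-Cre on day 0 or on day 2, where 4.03% and 10.2% of all expressed transcripts were. On day 2, 1 of the 6, *Kmt2c*, was over 2-fold lower, where 18.3% of expressed transcripts were, although it stood at −0.96 with the sum of counts, −0.91 with TMM factors and −0.88 with DESeq2 size factors. As reported 2, *Kmt2c* and *Setd7*, were over 1.5-fold lower, where 33.7% were, which neither was with the length trend, the GC trend or both removed. With the GC trend removed *Kmt2b* (−0.74), *Kmt2d* (−0.81) and *Setd1a* (−0.74) were over 1.5-fold lower instead. The share of all expressed transcripts in that setting is not given here. The median at day 2 was thus below that of all expressed transcripts and above that of the long ones, and it was 0.34 with the length trend removed, −0.65 with the GC trend removed and −0.24 with both removed. Direction at day 2 held in all 10 settings for 3 genes, *Kmt2c* and *Setd7* (lower) and *Kmt2e* (higher).

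**Figure D3:**
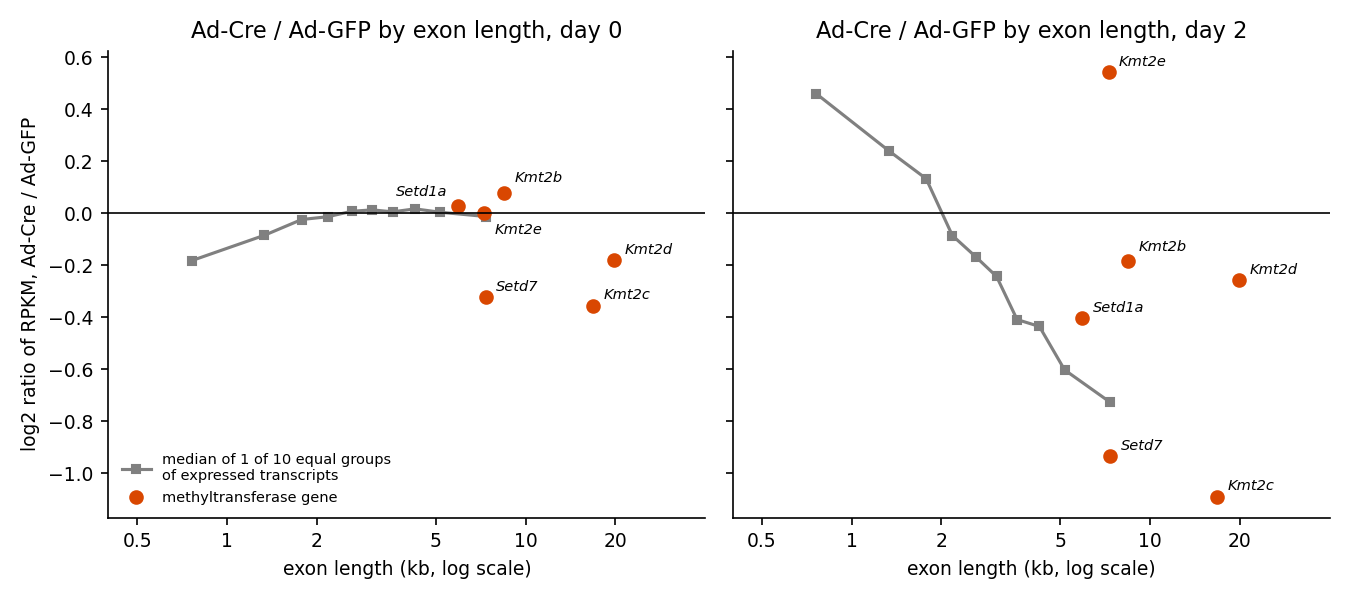
Deletion ratio (log2 RPKM ratio, vertical axis) against exon length (horizontal axis, log scale) at day 0 and day 2. Grey squares are medians of 10 equal groups of expressed transcripts ordered by length, placed at the median length of each group, and orange points are the 6 genes. At day 2 the grey line falls from 0.46 to −0.73, with *Kmt2c* and *Setd7* below its end and the other 4 genes above it.

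The transcripts of *Kmt2c*, *Kmt2e* and *Setd7* have GC contents of 46.4%, 45.9% and 47.6%, and those of *Kmt2b*, *Kmt2d* and *Setd1a* of 59.1%, 58.4% and 57.0%. The day 2 deletion ratio was also related to GC content, with medians of −0.69 in the lowest and 0.60 in the highest of 10 equal groups ordered by GC content. With the length and GC trends both removed, the 5 genes that were lower at day 2 ranged from −0.36 for *Setd1a* to −0.069 for *Setd7*, and *Kmt2e* stood at 1.42. That value is over 2.5-fold higher, while no gene passed that limit upwards in the other 9 settings. The share of all expressed transcripts past the limit with both trends removed is not given here.

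**Figure D4:**
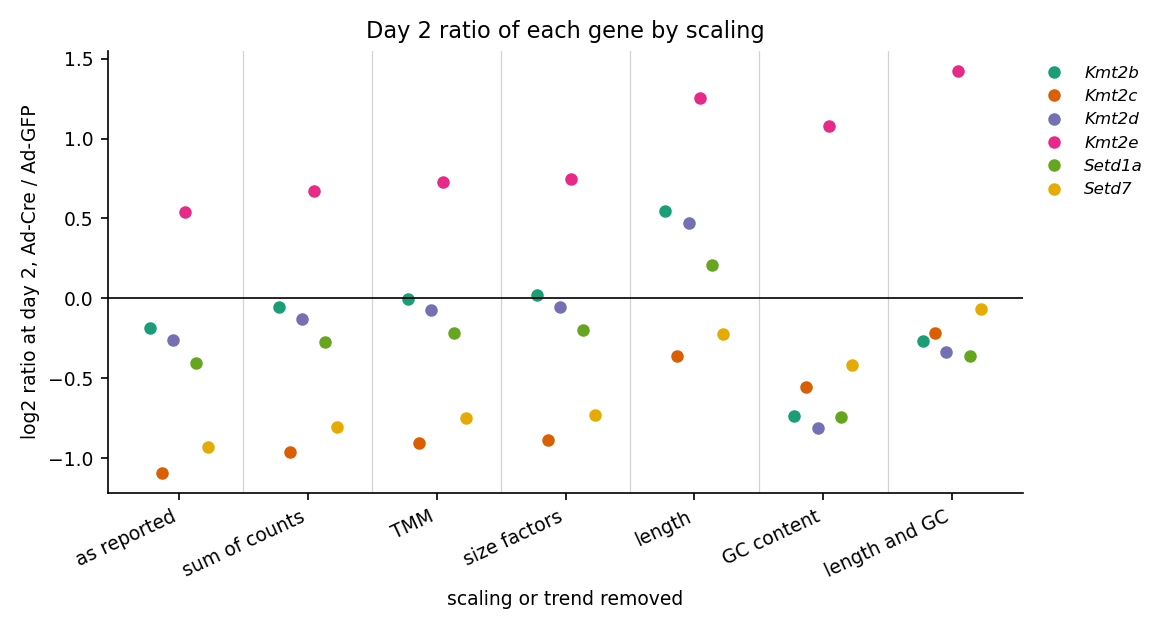
Day 2 deletion ratio (log2 RPKM ratio, vertical axis) of each gene (colour) under 7 scalings or trend removals (horizontal axis). *Kmt2e* is the highest gene in each column, from 0.54 as reported to 1.42 with the length and GC trends removed, whereas *Kmt2b*, *Kmt2d* and *Setd1a* cross 0 with the length trend removed and *Kmt2b* with size factors.

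The direction of the differentiation ratio differed among the genes. In Ad-GFP cells, *Kmt2b* and *Kmt2c* were higher and *Kmt2e* and *Setd7* lower at day 2 beyond counting error, each with the same sign in all 10 settings, while *Kmt2d* and *Setd1a* had intervals that held 0. The intervals of 46.2% of all expressed transcripts lay above and of 35% below 0, and of 49% and 40.4% of the long ones. None of the 6 was past 2.5-fold there, where 8.38% of expressed transcripts were over 2.5-fold higher and 12.6% over 2.5-fold lower on day 2. As reported *Kmt2c* was over 1.5-fold higher, beside 27.8% of expressed transcripts, but it fell short at 0.56 with the GC trend removed and at 0.57 with 1 RPKM added, and *Kmt2b* passed at 0.73 with the GC trend and 0.78 with both trends removed. *Kmt2e* and *Setd7* were over 1.5-fold lower, beside 23.5%, and *Setd7* was over 2-fold lower, beside 16%. For *Setd7* the ratio fell short of 2-fold at −0.96 with the sum of counts and at −0.93 with 1 RPKM added. In Ad-Cre cells 1 of the 6, *Setd7*, was over 2.5-fold lower, where 10.3% of all expressed and 18.4% of the long expressed transcripts were. None was over 2.5-fold higher, where 8.31% of all expressed transcripts were. With the length trend removed, alone or with the GC trend, *Setd7* no longer passed the limit, at −1.03 and −0.96 on the log2 scale. The median differentiation ratio of the 6 genes was 0.038 with Ad-GFP and −0.088 with Ad-Cre, beside 0.13 and −0.042 for all expressed transcripts, and both medians of the 6 changed sign under some scalings and with the length trend removed. The differentiation ratio was itself related to GC content. In the lowest and highest of 10 equal groups of expressed transcripts its medians were 0.34 and −0.18 with Ad-GFP, and −0.46 and 0.44 with Ad-Cre.

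**Figure D5:**
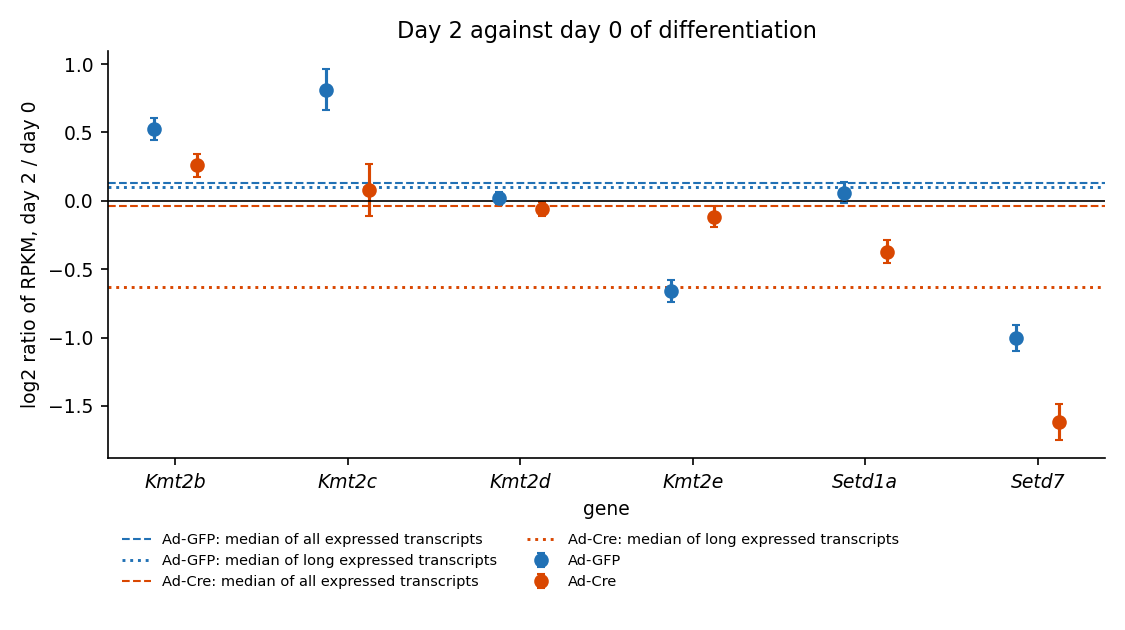
Differentiation ratio (log2 RPKM ratio, vertical axis) of each gene with Ad-GFP (blue) and Ad-Cre (orange), with exact binomial 95% intervals. Dashed lines are medians of all expressed and dotted lines of the long expressed transcripts. *Setd7* lies lowest in both, at −1.005 and −1.61, and *Kmt2e* is the only gene whose Ad-Cre point lies above its Ad-GFP point, although with TMM factors, DESeq2 size factors or the sum of counts *Kmt2d* joins it, with both trends removed *Kmt2c* and *Setd7* do, and with the length trend removed all 6 do.

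The difference between the courses, the differentiation ratio with Ad-Cre minus that with Ad-GFP, was −0.74 for *Kmt2c* (Wald 95% interval from the 4 read counts −0.97 to −0.50) and −0.61 for *Setd7* (−0.77 to −0.45). It was −0.43 for *Setd1a*, −0.27 for *Kmt2b* and −0.079 for *Kmt2d*. For *Kmt2e* it was 0.54 (0.44 to 0.65). The median of the difference was −0.14 over all expressed and −0.69 over the long expressed transcripts. Only the *Kmt2e* difference kept its sign in all 10 settings.

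The order of levels within a library differed among libraries. In Ad-GFP cells at day 0 *Setd1a* and *Kmt2e* led with overlapping Poisson intervals, followed by *Kmt2d* and *Setd7*, whose intervals also overlapped, then *Kmt2b* and *Kmt2c*. In Ad-GFP cells at day 2 the order was *Setd1a*, *Kmt2d* and *Kmt2b* (*Kmt2d* and *Kmt2b* overlapping), *Kmt2e*, *Setd7* and *Kmt2c*. In Ad-Cre cells *Setd1a* led *Kmt2e* at day 0 and *Kmt2e* led *Setd1a* at day 2, with no overlap on either day. *Setd1a* held the largest share of the summed RPKM of the 6 genes in Ad-GFP cells at day 2, 28.5%. *Kmt2d* held between 17.9% and 21.4% in the 4 libraries. *Setd7* went from 18.1% to 9.94% with Ad-GFP, and from 15.2% to 5.93% with Ad-Cre. Shares do not depend on the scaling of libraries, but neither shares nor order were corrected for the relations to length and GC content.

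Among the 11990 transcripts with at least 100 reads in every library, the 3 genes whose pattern over the 4 libraries was most like that of *Kmt2c* were *Zbtb43*, *Clpx* and *AW554918*, at root mean square distances of 0.027, 0.027 and 0.032 on the log2 scale. *Zbtb43*, for example, went from 4.44 to 7.86 RPKM with Ad-GFP and from 3.65 to 3.71 RPKM with Ad-Cre. Those most like *Kmt2d* were *Gmeb1*, *Pip4p2* and *Slc30a6*, at 0.015, 0.015 and 0.020. *Gmeb1* stood at 6.76 and then 6.77 RPKM with Ad-GFP, and at 5.96 and then 5.57 RPKM with Ad-Cre. With 4 libraries many patterns lie close together, and nothing is read from the likeness.

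The partners, relatives and opponents of these enzymes, 27 genes in 6 lists, were measured alongside, and 25 were expressed. On day 0 none of the 25 had a deletion ratio past 2.5-fold, and their median was −0.0092. The interval lay above 0 for 4 of the 25 and below 0 for 8, beside 26.7% and 29.3% of all expressed transcripts. At day 2 it lay above 0 for 5 and below 0 for 17, beside 32.8% and 48.3% of all and 18.6% and 73.2% of the long expressed transcripts. At day 2, 1 was over 2.5-fold higher and 2 were over 2.5-fold lower, beside 7.92% and 10.2% of all expressed transcripts. Their median was −0.32, and with the length and GC trends removed none was past the limit in either direction and the median was 0.17.

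Of the shared core, *Rbbp5* stood out at day 2. Its level was 7.17 RPKM (Ad-GFP) and 7.20 RPKM (Ad-Cre) on day 0, then 13.5 and 5.79 RPKM on day 2, a deletion ratio of −1.22 that became −0.55 with the length and GC trends removed. *Wdr5*, *Ash2l* and *Dpy30* had day 2 ratios of −0.24, −0.18 and −0.28, which became 0.016, 0.20 and −0.35 with both trends removed. In the complexes of MLL3 and MLL4, the H3K27 demethylase gene *Kdm6a* stood at 9.02 RPKM (Ad-GFP) and 3.58 RPKM (Ad-Cre) on day 2, and *Pagr1a*, which encodes the subunit PA1, at 16.7 and 56.2 RPKM. Their deletion ratios of −1.33 and 1.75 were past 2.5-fold and became −0.52 and 1.15 with the trends removed. *Paxip1*, which encodes PTIP, and the coactivator gene *Ncoa6* had day 2 ratios of −0.68 and −0.85, or −0.093 and −0.21 with the trends removed.

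Of the genes for subunits of the other complexes, *Hcfc1* and *Hcfc2* had day 2 ratios of −1.08 and −1.28, which became −0.67 and −0.80 with both trends removed. *Men1*, which encodes menin, and *Cxxc1*, which encodes the CpG-binding subunit CFP1, had day 2 ratios of 0.72 and 0.49, which became 0.29 and 0.17. The ratio of *Men1* was 0.38 on day 0, from 50.5 RPKM (Ad-Cre) and 38.7 RPKM (Ad-GFP). Among the other SET domain enzymes, *Prdm9*, a methyltransferase known from meiosis, was low, with 0.672 RPKM (Ad-GFP) and 0.7999 RPKM (Ad-Cre) on day 0 and 3.11 and 1.49 RPKM on day 2. It counted as expressed only through the Ad-GFP day 2 library, so nothing is read from its higher level there. Among the genes for H3K4 demethylases, *Kdm1b* was over 2.5-fold lower with Ad-Cre on day 2 (4.10 against 1.55 RPKM, a deletion ratio of −1.40, and −0.66 with the trends removed), whereas *Kdm1a*, which encodes LSD1, was at 25.4 and 25.9 RPKM.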

How the data were processed

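RNA-Seq of 4 libraries was analysed. Per the study's methods, 50-base reads were aligned to NCBI37/mm9 and those on RefSeq exons were kept. The authors deposited raw read counts, 1 whole number per transcript and library. The authors also deposited RPKM, the count scaled to exon length and mapped reads. How reads with several matches and strand were treated is not given in the sources used here, so overlapping genes may share reads. Mapped reads, taken from the study's list of libraries, ran from 17198448 to 22986362, and 3 reads on 1 kb correspond to 0.131 to 0.174 RPKM.

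The members and lists were chosen with earlier results of these data known. Named were all members found, every gene list entry that a result turns on and, for *Kmt2c* and *Kmt2d*, the 3 genes of most similar pattern. A gene was represented by its transcript with most reads, with symbols from a RefSeq table of GRCm38.p6 used for names alone. GC content, exons and sequences came from GENCODE vM1 on NCBI37/mm9. Ratios of RPKM were computed with exact binomial 95% intervals (scipy 1.17.1), which cover counting error only. Transcripts without a read in either library of a ratio were left out of its background. The 2.5-fold cutoff and the RPKM threshold of 1 follow the study's methods. Replacement of a ratio by its distance from a trend used medians of 20 bins of length or GC content, and 5 rounds where both were removed. TMM factors (edgeR 4.0.16) and size factors (DESeq2 1.42.0) came from the deposited counts, expressed transcripts only, in R 4.3.3, with no test. The 10 settings are the values as reported and 9 alternatives, of which removal of the GC trend alone, and all those for the difference of courses, were added after seeing the data. Windows were matched with blastn 2.17.0. Steps were run in Python 3.11.15 with numpy 2.4.6, pandas 2.3.3 and matplotlib 3.10.9, and tested on simulated data. The labels name the Ad-GFP cells WT, and their genotype as lacking MLL3.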

Additional observations from a re-analysis of the deposited data

How the results depend on the processing

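With 1 library per condition no value has a replicate error, so counting error is the only yardstick. Leaving out the settings on transcript choice, which cannot move genes with a single row, 115 of 210 ratios of single genes moved by more than counting error. Of 35 medians, 20 moved outside the median of the limits of the single genes, which is not the counting error of a median. The median deletion ratio at day 2 moved to −0.20 with the sum of counts as denominator, −0.15 with TMM factors, −0.12 with DESeq2 size factors, 0.34 with the length trend removed, −0.65 with the GC trend removed and −0.24 with both removed. The median differentiation ratio in Ad-GFP cells moved to −0.063 (TMM factors), −0.092 (size factors), −0.11 (length), 0.21 (GC content) and 0.25 (both), and that in Ad-Cre cells to 0.090 (sum of counts), 0.54 (length), −0.26 (GC content) and 0.35 (both). The median difference of the courses moved to −0.21 with the sum of counts and with TMM factors, −0.18 with size factors, 0.37 with the length trend and 0.038 with both trends removed. As for genes past the cutoff, 1 was higher in the day 2 deletion ratio with both trends removed. As reported, 2 were lower at 1.5-fold and 1 at 2-fold, beside 33.7% and 18.3% of all expressed transcripts. In the differentiation ratio of Ad-GFP cells as reported, 1 was higher and 2 were lower at 1.5-fold, beside 27.8% and 23.5%. At 2-fold 1 was lower there, beside 16%. In the differentiation ratio of Ad-Cre cells 0 were lower with the length trend, or both trends, removed or at 4-fold. Shares of all expressed transcripts with a trend removed or at 4-fold are not given here. Removal of a trend alters these ratios by construction, and beyond that the cause was not tested. No paired analysis was possible because each condition has 1 library.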
